A study of Mus musculus with 15 samples.

Results

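RNA sequencing of the acinar line 266-6, which was derived from a mouse pancreatic tumour, was used to measure what the retinoid AM580 does to cells that already receive CD3254. The comparison sets cells given AM580 and CD3254 together, named the joint treatment here, against cells given CD3254 alone. It uses 6 of the 15 libraries of the series, 3 a side, chosen by the treatment in their labels. Of 43432 gene identifiers in the table, the 16736 that passed a filter on low counts were tested. Cells of both groups spent 24 h in stripped medium and then 24 h with ligand, and no genetic change was made in either group. The other 9 libraries, 3 each of the vehicle DMSO, AM580 alone and 9-cis retinoic acid, entered the same fit and are described where they give the same ligand without CD3254. Ligand concentrations are not stated in the labels. Nor do they say whether the 3 libraries of a treatment are separate cultures, and the p-values therefore cover the spread among these libraries only, which may be technical. All libraries are from 1 cell line.

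Retinoic acid receptors (RARα, RARβ and RARγ, encoded by Rara, Rarb and Rarg) sit on DNA as heterodimers with retinoid X receptors (RXR). AM580 is an agonist selective for RARα, CD3254 is an RXR agonist, and 9-cis retinoic acid binds receptors of both families. An agonist on the RAR partner releases corepressors and recruits coactivators, and the best known target genes encode enzymes that clear or reduce retinoids and the receptor RARβ itself, which together form a feedback loop. The RXR partner of RAR is described as responding weakly to its own ligand until RAR is liganded, so the comparison asks what the RAR ligand adds once the RXR ligand is present.

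The binding element of the heterodimer is a direct repeat of a half-site with the letters AGGTCA, or AGTTCA, or GGGTCA, or GGTTCA. These letters were searched on both strands in the promoters listed by RefSeq on GRCm38.p6, 250 bases before to 50 bases after each start. Of 32851 such promoters of 300 bases, 43.7% held at least 1 half-site, 0.222% a direct repeat with a spacer of 1 base, 0.268% one with a spacer of 2 and 0.0974% one with a spacer of 5. Of the 5 genes that rose on addition of AM580, Rarb held the repeat with spacer 5. The promoters of Cyp26b1, Enpp1 and Fmo5 and the 3 promoters of Dhrs3 held none of these letters, which says nothing of elements outside the window. The promoter of Cyp26a1, whose transcript stayed at 6 reads or fewer in each of the 6 libraries, held the repeat as well. These 3 promoters are shown, 5′ to 3′ on the strand of the gene, with the letters of the repeat and its spacer in capitals. They show a gene with the repeat that rose, a gene with it that was nearly silent and the gene with the largest change, which lacks it.
Rarb, chr14:16575427-16575726, minus strand: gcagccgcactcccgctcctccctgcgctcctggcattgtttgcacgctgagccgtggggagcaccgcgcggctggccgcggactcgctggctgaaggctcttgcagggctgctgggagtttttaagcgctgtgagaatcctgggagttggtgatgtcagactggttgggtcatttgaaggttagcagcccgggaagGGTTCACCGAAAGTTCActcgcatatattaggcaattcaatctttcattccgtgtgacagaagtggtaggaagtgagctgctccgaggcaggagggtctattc
Cyp26a1, chr19:37697558-37697857, plus strand: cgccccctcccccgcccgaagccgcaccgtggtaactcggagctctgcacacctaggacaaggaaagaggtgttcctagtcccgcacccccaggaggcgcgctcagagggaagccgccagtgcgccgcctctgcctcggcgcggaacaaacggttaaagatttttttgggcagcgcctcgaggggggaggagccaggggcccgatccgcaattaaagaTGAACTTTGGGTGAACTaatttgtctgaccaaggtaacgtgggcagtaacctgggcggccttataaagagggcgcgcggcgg
Cyp26b1, chr6:84593761-84594060, minus strand: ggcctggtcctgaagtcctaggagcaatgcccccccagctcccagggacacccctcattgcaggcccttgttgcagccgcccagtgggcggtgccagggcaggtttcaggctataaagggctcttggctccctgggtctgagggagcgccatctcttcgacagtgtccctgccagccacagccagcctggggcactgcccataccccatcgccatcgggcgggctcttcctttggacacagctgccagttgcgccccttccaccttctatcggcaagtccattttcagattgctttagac
The repeat of Rarb lies from 53 to 37 bases before the start, in the direction of the gene, at chr14:16575513-16575529. That of Cyp26a1 lies from 32 to 16 bases before the start, on the opposite strand. A match is a description of letters, not of binding.

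The 6 libraries held from 28501170 to 44415802 reads in genes, and from 19.28% to 28.55% of their reads were not assigned to a gene. The first principal component of log2 CPM (the reads of a gene relative to its library's total, on one scale for all libraries), with 48.34% of the variance, parted 5 libraries of the series, 1 of each treatment, from the other 10. CD3254 replicate 1 and joint replicate 2 are in that 5-library set. All 25 of 25 genes of a low-oxygen response list had a higher mean in it, with a median log2 ratio of 2.98, and their summed level was 13200 and 14800 CPM in those 2 libraries against 2000 to 2350 CPM in the other 4. The set therefore entered the model as a term, read from the same counts that were tested. Acinar identity was partly visible: Ctrb1 (chymotrypsinogen) stood at 3840 to 5220 CPM, Cela1 (elastase) at 1050 to 3280 and Ptf1a (the acinar lineage factor) at 19.6 to 67.5, while the amylase Amy2a2 had no reads. Of the markers of other cell types, Cd3e, Ins1 and Iapp had no reads, and Ptprc, Ins2, Gcg, Sst and Cdh5 had 3 reads or fewer in each library. Other members of those lists were present in all 6: the secretory granule genes Chga and Chgb of the endocrine list at 166 to 301 and 105 to 149 CPM, and the growth factor receptors Pdgfrb and Pdgfra of the fibroblast list at 155 to 222 and 15.1 to 18.3 CPM.

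Addition of AM580 to CD3254 raised 5 of 16736 genes tested, or 0.0299%, and lowered 0 of them, or 0%, at a false discovery rate (FDR, the Benjamini-Hochberg adjusted p of edgeR's quasi-likelihood test) under 0.05. The 5 were Cyp26b1, Dhrs3, Enpp1, Fmo5 and Rarb. Among them are an oxidase that destroys retinoic acid, a reductase that turns retinaldehyde back to retinol, and a receptor for retinoic acid. At an unadjusted p under 0.05 there were 341 genes in either direction, or 2.04%. In each of the 5 genes all 3 joint libraries lay above all 3 CD3254 libraries. The 5 were called from these same libraries, so that order adds no support. Its share over all genes was not counted. With no term for the library set the count fell from 5 to 0, with 107 genes at an unadjusted p under 0.05 and a smallest FDR of 0.0904. The count was 3 without CD3254 replicate 2, 2 without CD3254 replicate 3, and 13 when AM580 replicate 1 and replicate 3 of 9-cis retinoic acid were left out of the shared fit. DESeq2 with the same term called 13 genes higher and 1 lower.

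**Figure D1:**
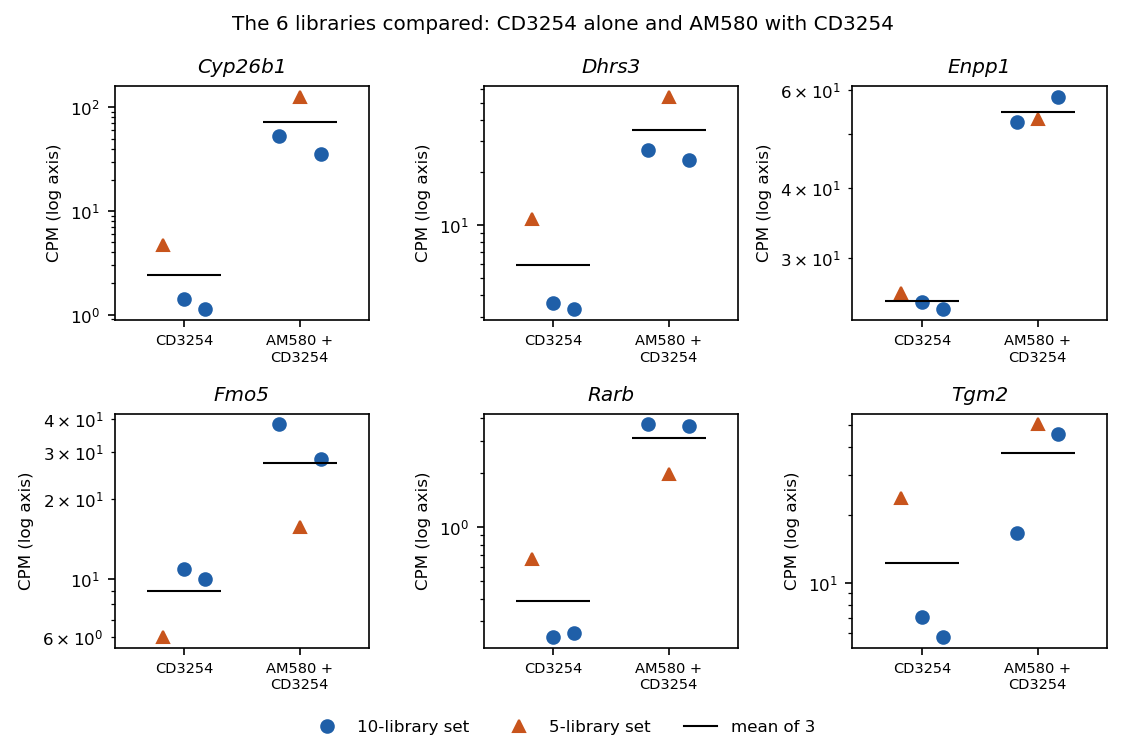
Level of Cyp26b1, Dhrs3, Enpp1, Fmo5, Rarb and Tgm2 in the 6 libraries, in CPM on a log axis; circles are libraries of the 10-library set, triangles those of the 5-library set, and lines the mean of 3. Groups are apart for all genes but Tgm2, where joint replicate 1 (16.7 CPM, 10-library set) lies below CD3254 replicate 1 (23.8 CPM, 5-library set).

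Cyp26b1 (ENSMUSG00000063415, chr6:84571414-84593908, minus strand, GENCODE M21 on GRCm38) encodes a cytochrome P450 that oxidises retinoic acid and so removes the natural ligand. It stood at 4.67, 1.43 and 1.13 CPM in CD3254 replicates 1, 2 and 3, and at 53.3, 127 and 35.5 CPM in the joint replicates. The highest library on each side was the one of the 5-library set. The gene rose by 4.99 ± 0.30 on the log2 scale (fitted value ± SE, 95% interval 4.34 to 5.64), which is 31.8-fold, with an FDR of 2.95e-06. Within the 10-library set, 2 libraries against 2 of a fit of all 10, the log2 change was 5.12 with an FDR of 0.00148, and the single pair of the 5-library set differed by 4.73. Its relatives Cyp26a1 and Cyp26c1 reached no more than 0.174 and 0.116 CPM in any of the 6 libraries and were not tested.

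Dhrs3 (ENSMUSG00000066026, chr4:144892827-144928209, plus strand) encodes a short-chain dehydrogenase that reduces retinaldehyde to retinol. Its level was 10.8, 3.57 and 3.31 CPM with CD3254 alone and 26.8, 54.1 and 23.5 CPM with both ligands. As for Cyp26b1, the library of the 5-library set was the highest on each side. The log2 change was 2.66 ± 0.22 (95% interval 2.18 to 3.14), or 6.31-fold, with an FDR of 0.000103. It was 2.87 within the 10-library set (FDR 0.00148) and 2.31 in the pair of the 5-library set. Over the whole series the fitted difference between the 5-library set and the others was 1.71 for Cyp26b1 and 1.16 for Dhrs3 on the log2 scale, smaller than the change with AM580 for both.

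Rarb (ENSMUSG00000017491, chr14:16430839-16819156, minus strand) encodes RARβ, the textbook target of liganded RAR. It was close to the floor of detection with CD3254 alone, with 25, 11 and 12 reads, or 0.663, 0.246 and 0.260 CPM. With both ligands it had 128, 55 and 145 reads, or 3.71, 1.97 and 3.62 CPM. The lowest joint library was the one of the 5-library set, and the highest CD3254 library was too. The log2 change was 2.98 ± 0.44 (95% interval 2.04 to 3.92), or 7.88-fold, with an FDR of 0.031. The call is the least firm of the 5: it was kept in 2 of 6 fits that leave out 1 of the 6 libraries, with an FDR from 0.00346 to 0.518. It was lost without CD3254 replicate 2 or 3 and without joint replicate 1 or 3. Within the 10-library set the log2 change was 3.84 (FDR 0.00148), and the pair of the 5-library set differed by 1.44.

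Enpp1 (ENSMUSG00000037370, chr10:24637914-24712159, minus strand) encodes an ectoenzyme that splits extracellular ATP into AMP and pyrophosphate. Its libraries lay close together within each treatment, at 26, 25 and 24.3 CPM with CD3254 alone and 52.5, 53.2 and 58.4 CPM with both ligands. The libraries of the 5-library set lay beside the others of their treatment. The log2 change was 1.12 ± 0.13 (95% interval 0.84 to 1.40), or 2.18-fold, with an FDR of 0.00343. Without CD3254 replicate 2 or 3 the FDR was above 0.05, up to 0.0606, and within the 10-library set the log2 change was 1.17 with an FDR of 0.0639.

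Fmo5 (ENSMUSG00000028088, chr3:97628804-97655282, plus strand) encodes a flavin monooxygenase that inserts oxygen into ketones and drugs. Its level was 6.02, 10.9 and 9.94 CPM with CD3254 alone and 38.2, 15.6 and 28.3 CPM with both ligands. Here the library of the 5-library set was the lowest on each side, and the fitted difference between the sets was -0.75. The log2 change was 1.58 ± 0.19 (95% interval 1.2 to 2.0), or 3.00-fold, with an FDR of 0.00343. It was 1.67 within the 10-library set (FDR 0.0285) and 1.36 in the pair of the 5-library set. Leaving out CD3254 replicate 3 moved the FDR to 0.0606. Of 7 flavin monooxygenases 4 were tested, and the other 3 of these lay between -0.24 and -0.04 on the log2 scale: Fmo2 was at 12.4 to 14.2 CPM in all 6 libraries, with a change of -0.09 ± 0.23.

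Tgm2 (ENSMUSG00000037820, chr2:158116402-158146436, minus strand), tissue transglutaminase, is a classical retinoid-responsive gene and did not pass the test. Its level was 23.8, 7.05 and 5.76 CPM with CD3254 alone and 16.7, 50.5 and 45.9 CPM with both ligands, so the groups overlap through CD3254 replicate 1 and joint replicate 1. The log2 difference was 1.83 ± 0.57 (95% interval 0.62 to 3.05) with an FDR of 1.0. The interval spans a wide range of sizes, and its lower end is above 0 only before adjustment over all genes. Within the 10-library set the log2 difference was 2.29 ± 0.66 (FDR 0.994), and the pair of the 5-library set differed by 1.08. Of 8 transglutaminases 3 were tested, and Tgm3 and Tgm4 differed by -0.51 ± 0.49 and 0.05 ± 0.51.

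The same 5 genes were then read in libraries that the comparison does not use. AM580 alone against DMSO gives the ligand without CD3254, with the spread estimated in the same fit. It called 5 genes higher (0.0299%), and 4 of these 5 were Cyp26b1, Dhrs3, Enpp1 and Fmo5. The remaining one was Cd38. For Rarb the log2 change with AM580 alone was 2.56 ± 0.44, with an FDR of 0.105. 9-cis retinoic acid against DMSO called 5 genes higher (0.0299%), which were the 5 that AM580 raised on CD3254. Replicate 3 of that treatment stands apart, with 14600962 reads in genes and 62.99% of its reads not assigned to a gene. Without it 4 genes were called, Rarb (3.09 ± 0.49, FDR 0.105) no longer among them. The comparisons with DMSO share the DMSO libraries.

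Mean levels across the 5 treatments place these changes. Cyp26b1 was at 0.307 ± 0.315 CPM (SD, n = 3) with DMSO, 3.84 ± 2.65 with AM580, 2.41 ± 1.96 with CD3254, 71.8 ± 48.3 with both and 9.24 ± 6.80 with 9-cis retinoic acid. The 3 joint libraries were above each of the other 12. Dhrs3 was at 3.80 ± 1.34, 23.3 ± 15.1, 5.91 ± 4.28, 34.8 ± 16.8 and 26.2 ± 8.71 CPM in the same order, and the joint libraries overlap those of AM580 and of 9-cis retinoic acid. Enpp1 was at 19.7 ± 0.729, 38.3 ± 4.61, 25.1 ± 0.868, 54.7 ± 3.19 and 41.1 ± 6.74 CPM. Its 3 joint libraries were above each of the other 12. For Cyp26b1 and Enpp1 this order includes the libraries that gave the calls, and its share over all genes was not counted. Fmo5 was at 3.72 ± 0.569, 12.6 ± 3.89, 8.96 ± 2.59, 27.4 ± 11.3 and 13.9 ± 4.06 CPM, with overlap between the joint libraries and those of AM580 and 9-cis retinoic acid. Rarb was at 0.332 ± 0.112, 1.96 ± 0.581, 0.389 ± 0.237, 3.10 ± 0.978 and 2.77 ± 0.593 CPM, with overlap between the CD3254 and DMSO libraries and between the joint libraries and those of AM580 and 9-cis retinoic acid.

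**Figure D2:**
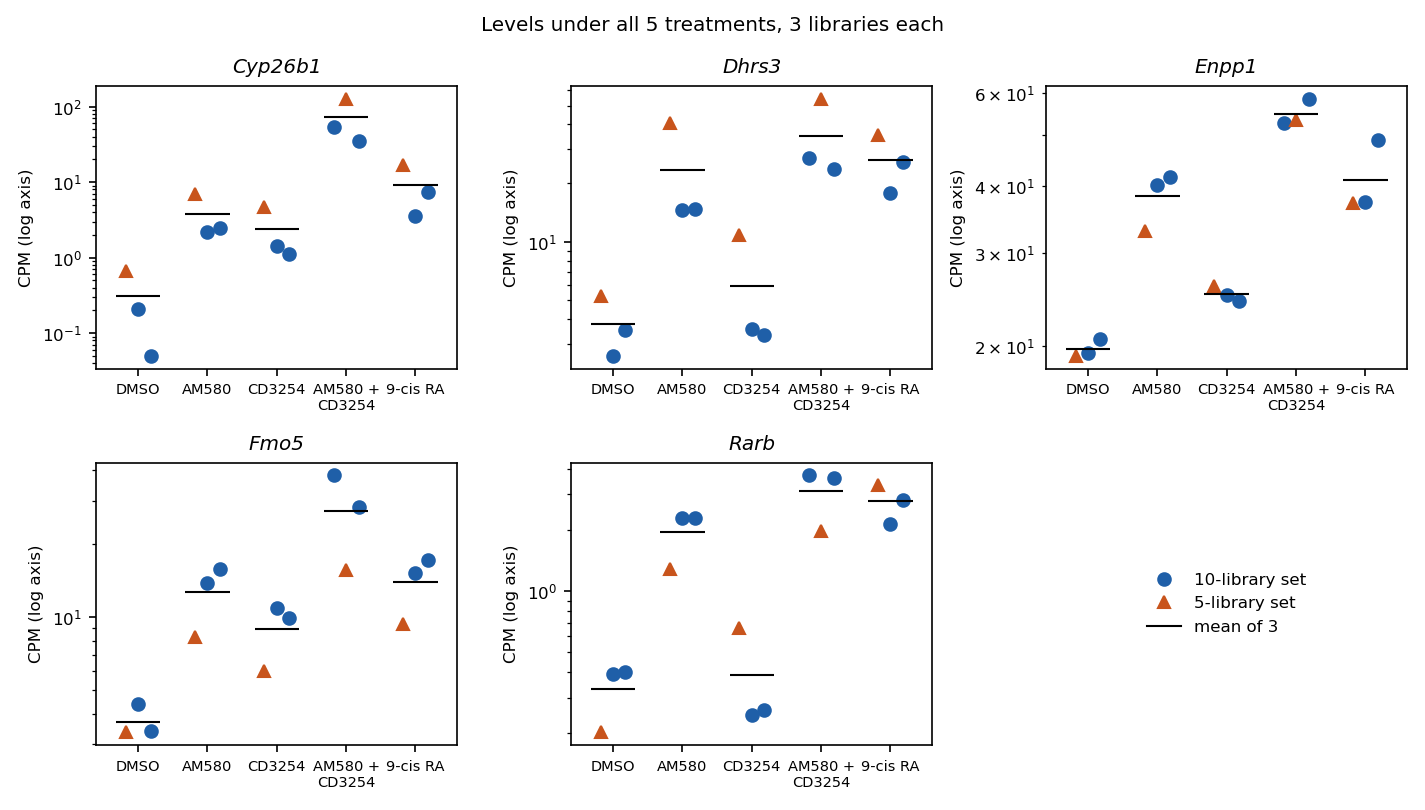
Level of the 5 genes under each treatment, in CPM on a log axis, 3 libraries each; circles are the 10-library set, triangles the 5-library set, lines the mean. Cyp26b1 goes from a mean of 0.307 CPM with DMSO to 71.8 CPM with both ligands, and Enpp1 from 19.7 to 54.7 CPM.

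Whether AM580 acts differently when CD3254 is present was tested as an interaction, the log2 change with AM580 on CD3254 minus that on DMSO. No gene of 16736 passed (0%), the smallest FDR was 0.961, and 332 genes had an unadjusted p under 0.05. DESeq2 called 0 as well. For Cyp26b1 the change was 4.99 with CD3254 and 3.73 ± 0.36 without, a difference of 1.26 (95% interval 0.23 to 2.30, unadjusted p of 0.0205, FDR 0.961). The difference was 0.17 (-0.49 to 0.82) for Dhrs3, 0.17 (-0.22 to 0.56) for Enpp1, -0.12 (-0.69 to 0.45) for Fmo5 and 0.42 (-0.91 to 1.75) for Rarb. These 4 intervals include 0, and that of Rarb is wide beside its changes of 2.98 and 2.56. For Tgm2 the change was 0.60 ± 0.56 without CD3254, and the interval of the difference ran from -0.47 to 2.93.

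**Figure D3:**
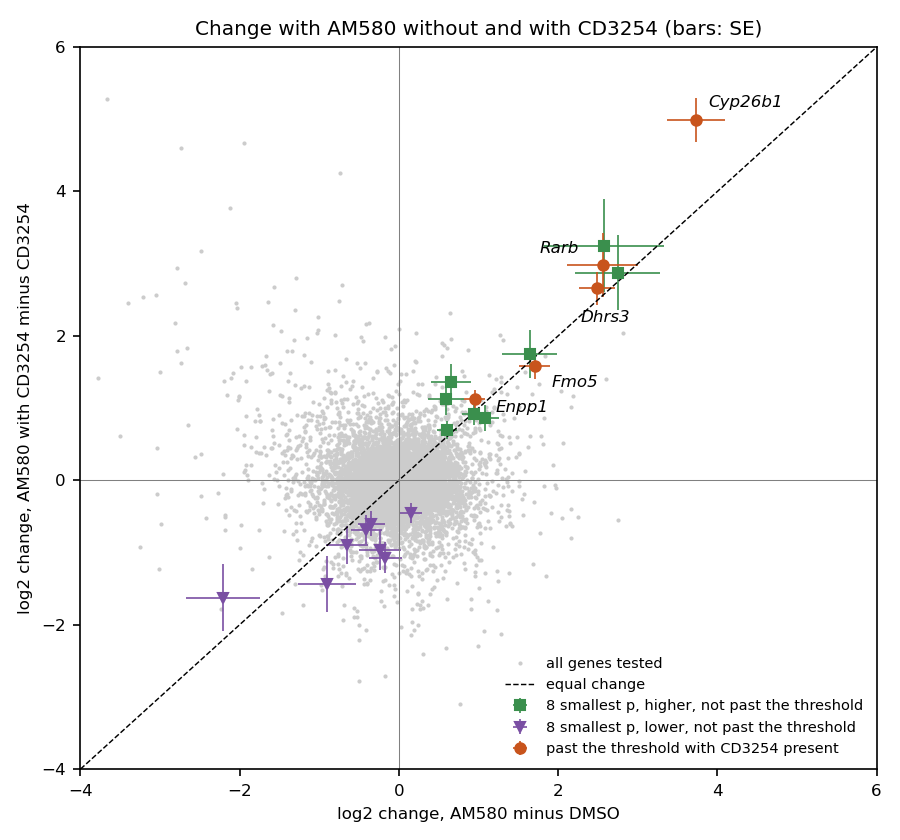
Log2 change on adding AM580 to CD3254 (vertical) against that of AM580 over DMSO (horizontal), with SE as bars; grey points are all genes tested and the dashed line marks equal change. Dhrs3, Enpp1, Fmo5 and Rarb lie near the line, and Cyp26b1 lies above it (4.99 against 3.73).

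Cd38, which makes cyclic ADP-ribose and is a known retinoid target, passed with AM580 alone but not on CD3254. Its level was 2.28, 2.84 and 2.77 CPM with CD3254 and 7.15, 5.12 and 5.52 CPM with both ligands. The log2 difference was 1.17 ± 0.30 with an FDR of 1.0, against a change of 2.19 ± 0.32 (FDR 0.0262) with AM580 alone. The difference between these was -1.02 (95% interval -1.94 to -0.10, unadjusted p of 0.0324, FDR 0.961), so passing in one and not in the other was not shown to be a difference.

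The receptors themselves, other than Rarb, gave no call. Rara, the receptor that AM580 binds, was at 29.5, 12.9 and 12.8 CPM with CD3254 and 13.9, 33.5 and 12.6 CPM with both ligands, the high library on each side being that of the 5-library set. Its log2 difference was 0.09 ± 0.17. Rarg differed by 0.18 ± 0.18, Rxra by 0.08 ± 0.16 and Rxrb by 0.03 ± 0.16, with Rxrb at 93.5 to 108 CPM in all 6 libraries. Rxrg reached no more than 0.143 CPM and was not tested. The coactivators and corepressors of the receptors gave 0 calls among 18 tested, beside 0.0299% called over all genes. All 18 had fitted values above 0, between 0.00 and 0.44 with a median of 0.16. Of them 0 had an unadjusted p under 0.05, beside 2.04% over all genes. The joint libraries' summed level of this list was 2080, 1950 and 2800 CPM and that of the CD3254 libraries was 1890, 2040 and 2000 CPM, so the values overlap.

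Of 33 listed RAR targets 24 were tested. Beside 5 of 16736 (0.0299%) over all genes, 3 of these 24 passed, all higher: Cyp26b1, Dhrs3 and Rarb. Fitted values were above 0 in 17 and below 0 in 7, with a median of 0.14 beside -0.00149 over all genes, where 8309 lay above 0 and 8427 below. Cd38 and Tgm2, described above, were among those not called, as was Btg2, an antiproliferative gene that differed by 0.40 ± 0.15. Other well known targets moved little in these cells. Meis1 and Meis2, partners of homeobox proteins, differed by 0.09 ± 0.12 and -0.0045 ± 0.15, Hoxa5 by 0.01 ± 0.15 and Nrip1 (a corepressor) by 0.29 ± 0.28. Stra6 (the retinol transporter) and Crabp2 (a retinoic acid carrier) had 23 reads or fewer in each library and differed by -0.50 ± 0.86 and -0.01 ± 0.65.

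Retinoid metabolism, 34 genes with 25 tested, gave 2 calls, the enzymes Cyp26b1 and Dhrs3, beside 0.0299% called over all genes. Fitted values were above 0 in 13 and below in 12, with a median of 0.00. The alcohol dehydrogenase Adh1 came nearest among the others. It stood at 59.1, 64.6 and 67.4 CPM with CD3254 and at 132, 119 and 110 CPM with both ligands. The log2 difference was 0.92 ± 0.16 with an FDR of 0.138. Adh1 also differed by 0.95 ± 0.16 with AM580 alone. The retinol dehydrogenases Rdh10 and Rdh11 differed by 0.17 ± 0.15 and 0.01 ± 0.15, and the retinaldehyde dehydrogenases Aldh1a2 and Aldh1a3, which make retinoic acid, by -0.03 ± 0.17 and -0.03 ± 0.21.

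**Figure D4:**
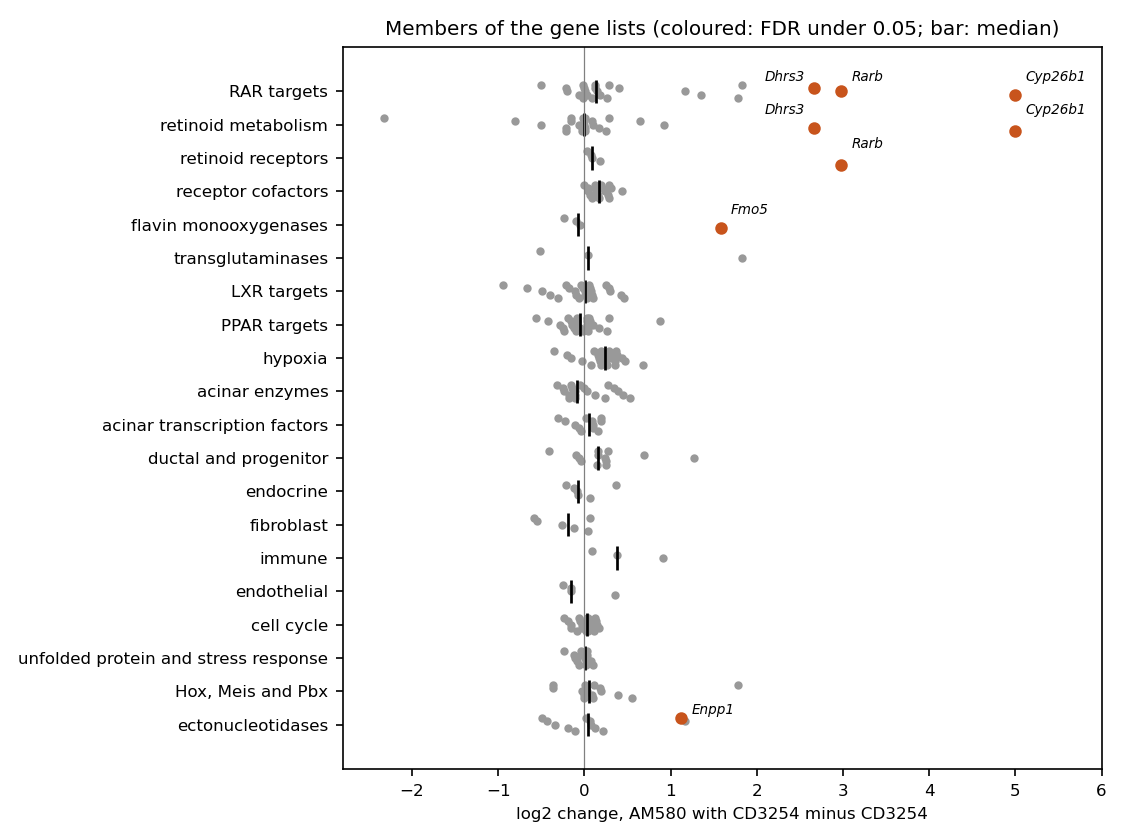
Log2 change of each tested member of 20 gene lists; coloured points have an FDR under 0.05 and black bars mark the list median. The called members are Cyp26b1, Dhrs3, Rarb, Fmo5 and Enpp1, and medians lie between -0.19 (fibroblast markers) and 0.38 (immune markers, 3 tested).

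Lists of other RXR partners had 0 calls in either direction, beside 0.0299% called over all genes, so 0 in lists of this size is near that share. Of 25 liver X receptor targets 13 lay above 0 and 12 below, with a median of 0.01: Elovl5, a fatty acid elongase, differed by 0.29 ± 0.12 and the cholesterol exporter Abcg1 by -0.31 ± 0.15. Of 27 tested PPAR targets 12 lay above 0 and 15 below, with a median of -0.05, and the smallest p was that of Creb3l3, a liver-type transcription factor, at -0.56 ± 0.19. Both groups of the comparison carry the RXR agonist, so a response to CD3254 common to them is not seen here.

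The acinar programme showed 0 calls, beside 0.0299% called over all genes, so 0 in lists of this size is near that share. Among 20 tested digestive enzymes and secretory genes the median was -0.08, with the lipase-related Pnliprp1 at 0.53 ± 0.25 and the carboxypeptidase Cpa1 at 0.45 ± 0.27. Cpa1 was at 405, 439 and 393 CPM with CD3254 and 576, 594 and 518 CPM with both, and it did not pass the test. Of 12 acinar transcription factors 7 lay above 0 and 5 below: Ptf1a differed by -0.23 ± 0.15, Rbpjl (its partner) by -0.31 ± 0.22 and Gata6 by 0.19 ± 0.11. Of 13 ductal and progenitor genes, 9 lay above 0, and the mucin Muc1 had the smallest p, with 0.477, 0.603 and 0.693 CPM against 1.13, 2.22 and 1.20 CPM and a difference of 1.27 ± 0.36. The 24 cell cycle genes had a median of 0.03, and 15 genes of the unfolded protein and stress response a median of 0.00. Both lists gave 0 calls, again beside 0.0299% over all genes.

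Of 12 tested ectonucleotidases and related enzymes Enpp1 passed, beside 0.0299% called over all genes. Its relatives Enpp2, Enpp3, Enpp4 and Enpp5 differed by -0.19 ± 0.33, 0.22 ± 0.26, 0.02 ± 0.21 and 0.12 ± 0.14. Of 16 tested Hox, Meis and Pbx genes 0 passed, and Hoxa3 differed by 0.55 ± 0.26. The low-oxygen list gave 0 calls, with 21 of 25 values above 0 and a median of 0.24 with the set term in the fit. Its smallest p was that of Car9, a carbonic anhydrase, with 141, 29.4 and 30.7 CPM against 56.5, 196 and 45.8 CPM and a difference of 0.67 ± 0.17. Pfkfb3, a regulator of glycolysis, differed by 0.47 ± 0.21. The part of what remains of the low-oxygen list after the term in the 5 calls was not tested. Among markers of other cell types, the antigen-presentation gene Cd74 was at 35.6 and 35.4 CPM in the libraries of the 5-library set and at 2.03 to 4.92 CPM in the other 4. Lists for endocrine, fibroblast, immune and endothelial cells, with 6, 6, 3 and 4 genes tested, gave 0 calls. At 0.0299% called over all genes, 0 calls in a list of this size is near that share.

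Below the threshold, the 8 genes with the smallest p on the higher side at a mean of at least 1 CPM are given as values that did not pass. They are Adh1, Itga2, Nqo2, H19, Pde7b, Tenm1, AI661453 and Pim3, with log2 differences from 0.70 to 3.24 and FDR values from 0.138 to 0.303. DESeq2 with the set term called all 8 higher. Itga2, the collagen receptor subunit, was at 10.9, 2.48 and 2.51 CPM with CD3254 and 16.1, 40.7 and 43.4 CPM with both, a difference of 2.87 ± 0.52. Nqo2, a quinone reductase, was at 21.2, 34.3 and 33.0 against 54.8, 36.1 and 51.3 CPM and differed by 0.70 ± 0.13. Pim3, a kinase, was at 152, 166 and 184 against 345, 243 and 326 CPM and differed by 0.86 ± 0.18. In 7 of the 8 genes all joint libraries lay above all CD3254 libraries. The 8 were picked by p from these same libraries, so that order adds no support. Its share over all genes was not counted. H19, the imprinted noncoding RNA, is the exception among the 8. It was at 456, 70.5 and 68.5 CPM against 203, 923 and 200 CPM, and differed by 1.36 ± 0.25. The high library on each side is the one of the 5-library set. Within the 10-library set H19 differed by 1.53 (FDR 0.152), and the pair of the 5-library set by 1.02. The fit of the 6 libraries alone called H19 higher (FDR 0.0273). Pde7b, a cyclic AMP phosphodiesterase, differed by 1.75 ± 0.33 and Tenm1, an adhesion protein, by 3.24 ± 0.64, at 0.201 to 0.637 CPM with CD3254. All 8 had the same sign in AM580 alone and in 9-cis retinoic acid, each against DMSO; over all genes 50.7% and 52% were above 0 there.

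On the lower side the 8 smallest p values belonged to Slc2a6, Jakmip2, Kcnmb2, Oas2, Arxes2, Mx2, Glipr2 and an identifier without a symbol, with differences from -0.46 to -1.63 and FDR values from 0.303 to 1. Slc2a6, a lysosomal glucose transporter, was at 5.44, 2.97 and 2.40 CPM with CD3254 and 1.36, 3.30 and 0.899 CPM with both, and its libraries overlap. It differed by -1.07 ± 0.22, and DESeq2 with the set term called it lower. Oas2 and Mx2, interferon-induced genes, differed by -0.60 ± 0.17 and -0.89 ± 0.27, with all 3 joint libraries below all CD3254 libraries for both. In 5 of the 8 genes the groups were apart in this way, but the 8 were picked by p from these same libraries. The share over all genes was not counted. With AM580 alone against DMSO 7 of the 8 had the same sign, Glipr2 being the exception. With 9-cis retinoic acid against DMSO all 8 did. Over all genes 49.3% and 48% were below 0 there.

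The median SE of a log2 change was 0.22 over all genes tested and 0.19 over the 13577 with a mean of at least 1 CPM. In 12199 of these, or 89.9%, the 95% interval lay within -1 to 1, so a change of more than 2-fold either way lies outside the interval for them, gene by gene and without adjustment. The smallest change called was that of Enpp1, at 1.12.

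**Figure D5:**
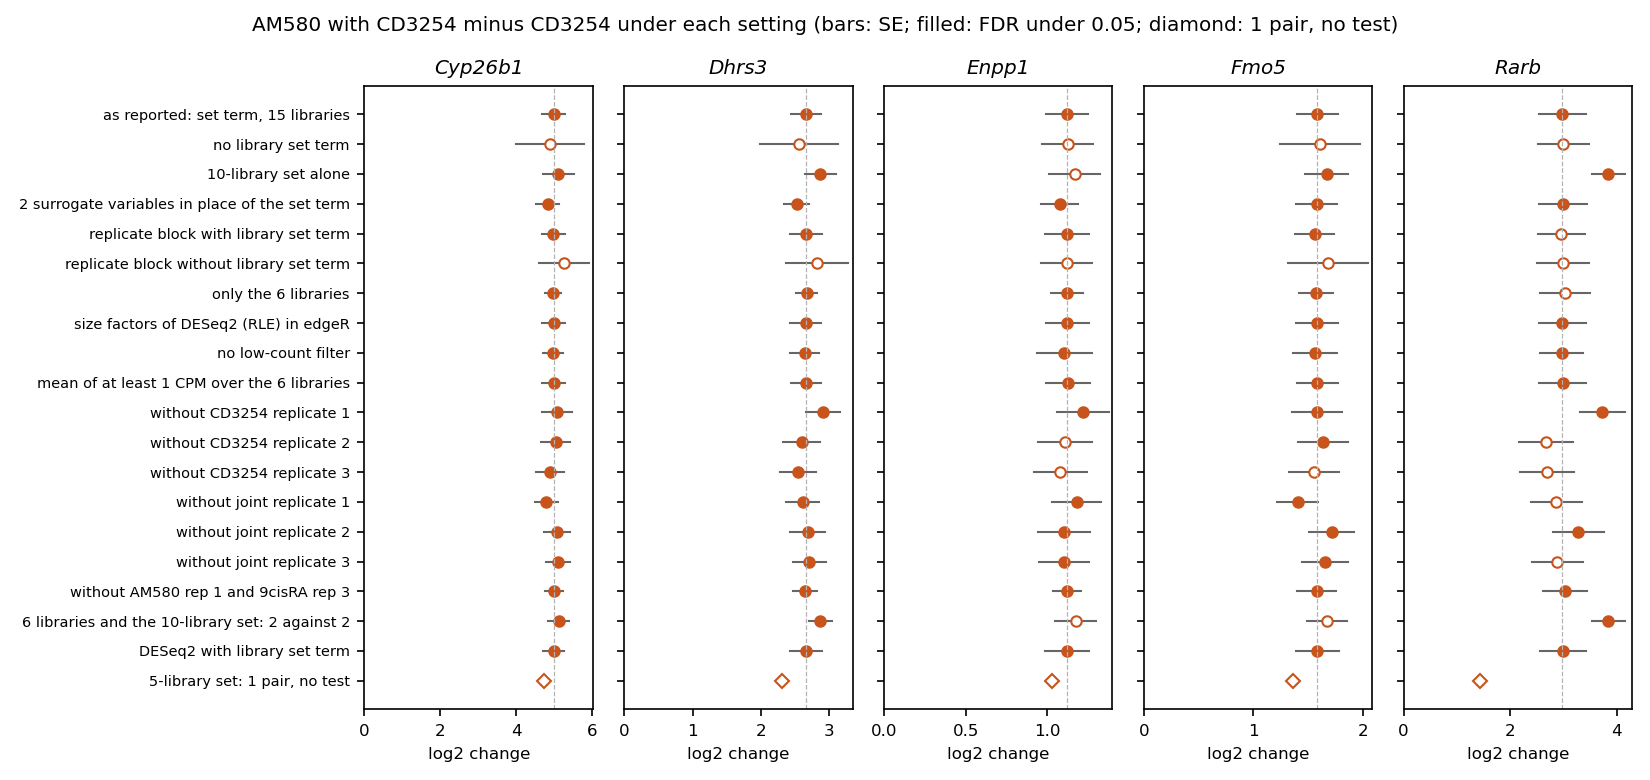
Log2 change of the 5 genes under each way of fitting, with SE as bars; filled points have an FDR under 0.05 and the diamond is the single pair of the 5-library set, without a test. Every value lies above 0, and no gene is filled in the fits named as having no library set term.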

How the data were processed

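RNA was extracted with TRIzol from cells grown as monolayers, per the labels' protocols. Reads were handled with HISAT2 2.2.1 and HTSeq, with SAMtools and FastQC, on the build mm10, per the submitters' processing notes. The authors deposited raw read counts per Ensembl gene for 15 libraries, without normalization. The sources used here do not give the strand setting or the annotation version, and overlapping or antisense genes may not be told apart. Of 43432 identifiers 42462 had a symbol and 42548 were in GENCODE M21, from which coordinates were taken. Rows of reads not assigned to a gene were dropped before totals were taken.

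The deposited counts were fitted with edgeR 4.0.16 (R 4.3.3): filterByExpr on the groups, TMM, robust quasi-likelihood, all 15 libraries, a term per treatment and 1 for the library set (the side of principal component 1 of log2 CPM on which a library lies, prior count 2), which is itself derived from the tested counts. Tests were two-sided with Benjamini-Hochberg adjustment over 16736 genes, at 0.05, with 9 residual degrees of freedom. SE came from the F statistic. CPM use TMM-scaled totals. The fit was also run on counts simulated from its own estimates with the same set term. That run cannot test a set term read from the counts.

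The comparison, the markers and the gene lists were chosen with earlier results of these data known. Named genes are those past the threshold, Cyp26b1, Dhrs3, Fmo5 and Tgm2, the receptors, the 8 smallest p values each way below the threshold at 1 CPM or more, and up to 4 members of each list described; a few other list members are given as values and were chosen after their values were seen. Predicted gene models were not described, and a few list members are not reported here. Alternatives were other normalization, filters, set handling, a replicate block, libraries left out, surrogate variables (sva 3.50.0) and DESeq2 1.42.0. Libraries of 1 treatment differed by a chi-square of 32.5 to 245 per degree of freedom, so none is a repeat deposit.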

Additional observations from a re-analysis of the deposited data

How the results depend on the processing

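Over the 5 called genes the direction was the same under all settings run. The number of genes higher on addition of AM580 to CD3254, 5 as reported, was 0 without the library set term, 0 with a replicate block and no set term, 8 with no filter on low counts, 13 with DESeq2, 13 when the fit left out replicate 3 of 9-cis retinoic acid and replicate 1 of AM580, and 2 to 5 when 1 of the 6 libraries was left out. Among fits that handle the set, or leave out libraries, in another way, the 10-library set alone gave 5 (Enpp1 not called), 2 surrogate variables gave 6, the 6 libraries alone gave 5 (Rarb not called), and 2 against 2 libraries of the 10-library set, added after seeing the data, gave 5 (Enpp1 and Fmo5 not called). The number lower was 0, except 1 with DESeq2. The number higher with AM580 alone, 5 as reported, was 0 without the set term, 3 in the 10-library set, 3 with the replicate block and set term, 0 with the block and no set term, 10 with no filter, 13 with DESeq2, 7 when those same libraries were left out and 3 to 5 when 1 of the 6 libraries, which enter through the shared spread, was left out. The number lower with AM580 alone was 0, except 1 with no filter and 4 with DESeq2, whose adjusted p was not given for 2272 genes there. The interaction gave 0 under all settings run. 9-cis retinoic acid against DMSO gave 5 higher, and 4 without its replicate 3, a setting added after seeing the data; it gave 0 lower in both. The cause of these differences was not tested.

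The replicate block with the set term gave 4 genes higher, Rarb not being called. Deviations of same-numbered libraries correlated at -0.66, -0.54 and 0.38, with CD3254 replicate 1 and joint replicate 2 in the 5-library set, and were not adjusted for the set. The labels do not say what a shared number marks, and the libraries were not treated as pairs. Replicate 1 is the library of the 5-library set in 4 of the 5 treatments, so number and set overlap. Cyp26b1 and Dhrs3 were called in 6 of 6 fits that left out 1 library, Fmo5 in 5, Enpp1 in 4 and Rarb in 2. Of the genes not called, signs turned for Kcnmb2 (0.12 with the replicate block and no set term), Rara (-0.0234 with surrogate variables; -0.028 to 0.19 with 1 library left out), Rxra (-0.0225 with surrogate variables) and Rxrb (-0.0158 in the 10-library set, -0.0109 in 2 against 2; -0.0164 to 0.0887 with 1 library left out). Depth limits Rarb, with 11 to 25 reads with CD3254 alone, and genes that were not tested.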

Other observations

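Slc26a2, a sulfate transporter, was chosen after its values were seen, because it was called in the 10-library set. It was at 15.5, 19.1 and 20.8 CPM with CD3254 alone and at 66.7, 22.2 and 68.1 CPM with both ligands, joint replicate 2 of the 5-library set being the low one. The log2 difference was 1.35 ± 0.35 (FDR 1.0) over all libraries and 1.76 ± 0.18 (FDR 0.0081) within the 10-library set. With AM580 alone it was 0.63 ± 0.35. Chd1l, a chromatin remodeller, stood at 43.2, 45.7 and 42.6 CPM against 73.6, 52.6 and 75.9 CPM. It differed by 0.61 ± 0.16 (FDR 1.0) on CD3254 and by 0.57 ± 0.16 with AM580 alone. Its annotated span, chr3:97560742-97610203 on the minus strand, ends before that of Fmo5 starts on the same chromosome. Zim1, an imprinted zinc finger gene, was at 6.39, 2.39 and 2.86 CPM against 6.31, 14.2 and 9.54 CPM and differed by 1.44 ± 0.35 (FDR 1.0). Chd1l and Zim1 were also chosen after their values were seen, and none of these 3 genes passed in the comparison of all libraries.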
